A study of Mus musculus with 8 samples.

Results

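The genes for matrix metalloproteinases (Mmp), for the ADAMTS proteases and their ADAMTS-like relatives (Adamts, Adamtsl) and for the tissue inhibitors of metalloproteinases (Timp) were followed through the stromal vascular cells of mouse inguinal white fat. Members were all genes in the count tables whose symbols carry these family names. There were 50 of them among 32285 genes, namely 22 Mmp, 19 Adamts, 5 Adamtsl and 4 Timp genes. The stromal vascular fraction is what is left of collagenase-digested fat once the floating adipocytes are gone. It was profiled by droplet single-cell RNA sequencing in 8 libraries from C57BL/6 mice (C57BL/6J in the study's methods), 4 of mice fed ad libitum (Ad-Lib 1, 3, 5 and 7) and 4 of mice fed as 2 nightly meals (TAN, for twice-a-night, libraries 2, 4, 6 and 8). The labels name no transgene or deletion and give an age of 8 weeks for both groups, whereas the study describes older male mice, so the age is not certain.

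Matrix metalloproteinases and ADAMTS proteases are zinc-dependent enzymes that cut the proteins around cells. The former digest collagens, gelatin and other matrix proteins and release growth factors from them. Several ADAMTS proteases cut the large proteoglycans versican and aggrecan, and others trim procollagens. TIMPs bind and block the active site, so that the balance of proteases and inhibitors sets how matrix is turned over. In white fat this turnover is part of how the tissue expands, shrinks and lays down new adipocytes and vessels, and fibroblast-like adipocyte progenitors are known as a main source of its matrix.

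The coding sequences of all 22 Mmp and all 19 Adamts genes held the zinc-binding signature of the catalytic domain, a run of 11 codons with histidines that hold the zinc and a glutamate that takes part in catalysis. None of the 5 Adamtsl and 4 Timp genes held it. The 33 bases are given here for the proteases on which the results turn, read 5′ to 3′ on the coding strand of GENCODE M21 transcripts, with the histidine and glutamate codons in capitals.
Adamts5: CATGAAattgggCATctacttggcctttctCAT
Adamts1: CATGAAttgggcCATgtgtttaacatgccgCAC
Mmp2: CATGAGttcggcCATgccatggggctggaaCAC
Mmp3: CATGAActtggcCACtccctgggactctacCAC
Mmp9: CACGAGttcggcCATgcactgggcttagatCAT
In GRCm38 coordinates the Mmp stretches lie in 1 exon each, at chr8:92839279-92839311 (Mmp2), chr9:7449775-7449807 (Mmp3) and chr2:164951133-164951165 (Mmp9), all on the plus strand. In each of the 19 Adamts genes an intron splits the signature. The Adamts5 stretch is made of chr16:85887817-85887826 and chr16:85878015-85878037, and that of Adamts1 of chr16:85799536-85799545 and chr16:85799191-85799213, all on the minus strand. Between the last pair of histidines, all 22 Mmp and 13 Adamts genes, Adamts5 included, have a glycine codon, whereas 5 Adamts genes, Adamts1 among them, have an asparagine codon and 1 has a serine codon. Adamts1 (chr16:85793827-85803113) and Adamts5 (chr16:85856173-85901828) are neighbours with 53059 bases between them.

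The tables held 44427 cell barcodes and 232345333 unique molecular identifiers (UMIs, 1 per captured transcript), with 25320800 to 37140950 UMIs per library. After filters on depth and mitochondrial share 36370 cells remained, 3717 to 5654 per library. Only 252 barcode sequences occurred in more than 1 library. The median mitochondrial share was 1.79 to 2.54% under Ad-Lib feeding and 2.80 to 4.24% under TAN (exact permutation p = 0.0286, two-sided, the smallest 4 against 4 allow, 0.1 after Benjamini-Hochberg adjustment over 7 values). Progenitors made up 25.4 to 38.9% of cells under Ad-Lib feeding and 12.9 to 25.3% under TAN (exact permutation p = 0.0286, adjusted 0.1). Ad-Lib and TAN were therefore compared within a cell type, on UMIs summed per library, so the n is 4 mice against 4.

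Cells were put in gates by marker genes that hold no member of the families. The gates held 9615 progenitors, of which 3721 were Dpp4+ (the early interstitial progenitors, known by Dpp4 and Pi16), 2473 Icam1+ (committed preadipocytes, known by Icam1, Col15a1 and Pparg) and 1146 F3+ (known by F3, Gdf10 and Clec11a). The others fell between the subsets, and 1997 progenitors lay within 0.25 SD of the margin between subsets. There were 6763 endothelial cells, 621 mural cells (pericytes and smooth muscle) and 3862 macrophages. Levels are given as CPM, a gene's UMIs scaled to 1000000 UMIs of a gate in a library. The kit counts the 3′ ends of transcripts, so levels are per transcript molecule and were not divided by gene length. Of the 50 members, 32 had enough UMIs to be tested in at least 1 gate, 14 had UMIs but were never tested, and Mmp1b, Mmp7, Mmp20 and Mmp21 had none in these gates.

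To see which cells make which enzymes and inhibitors, member levels were compared between gates with edgeR's quasi-likelihood test, with a call needing 2-fold or more and an adjusted p (Benjamini-Hochberg) under 0.05. Against the mean of the 3 progenitor subsets, endothelial cells were lower in 18 and higher in 6 of 29 members tested, where 18.7% and 16.3% of all 12266 genes were lower and higher. Macrophages were lower in 24 and higher in 2 members (all genes 22.1% and 18.2%), and mural cells lower in 14 and higher in 7 (14.9% and 12.2%).

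**Figure D1:**
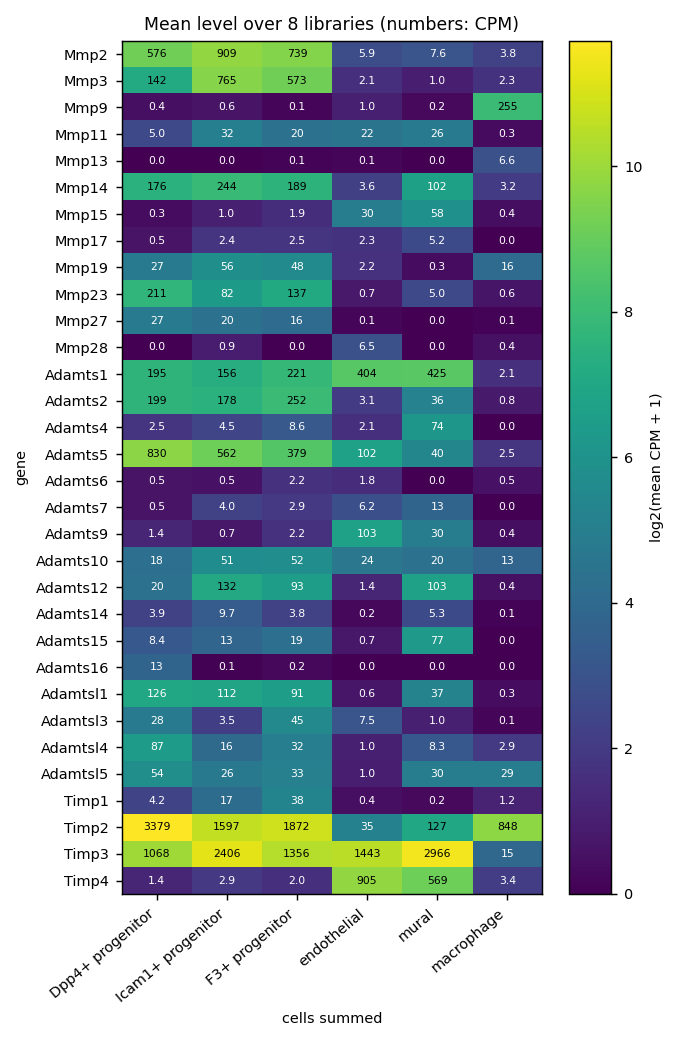
Mean level over the 8 libraries of the 32 members tested in at least 1 gate (rows) in 6 gates (columns), with the CPM printed in each cell and the colour on a log2(CPM + 1) scale. Mmp2, Mmp3 and Adamts5 are high in the 3 progenitor columns, Timp4 and Adamts9 in the endothelial and mural columns, and Mmp9 in macrophages.

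Mmp2, gelatinase A, which digests denatured and basement membrane collagen, had a level of 619 to 872 CPM in the progenitors of the 8 libraries. In endothelial cells it was 2.73 to 8.15 CPM, a log2 difference of -7.10 ± 0.12 (SE). Mmp14, the membrane-anchored protease that activates pro-Mmp2, had the same bias at -5.95 ± 0.15 in endothelial cells, whereas mural cells held 103 CPM over all libraries (-1.25 ± 0.12). Mmp3, stromelysin 1, which cuts proteoglycans and activates other pro-enzymes, was -7.62 ± 0.15 in endothelial and -7.29 ± 0.15 in macrophages. Mmp23 and Mmp27 followed the same pattern, with log2 differences of -7.55 ± 0.14 and -7.22 ± 0.25 in endothelial cells.

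The ADAMTS genes were spread over several cell types. Adamts2, a procollagen N-proteinase, was a progenitor gene (-6.14 ± 0.11 in endothelial, -2.87 ± 0.11 in mural cells). Adamts5, a proteoglycanase that cuts versican and aggrecan, was highest in progenitors but still measured in endothelial cells (-2.53 ± 0.14), and was lower in mural cells (-4.09 ± 0.21) and macrophages (-7.68 ± 0.23). Adamts9, another versican-cutting protease, was instead an endothelial and mural gene, 6.26 ± 0.13 and 4.47 ± 0.29 above progenitors on the log2 scale. Adamts4 (3.74 ± 0.25) and Adamts15 (2.34 ± 0.19), also proteoglycanases, were higher in mural cells than in progenitors, and both were lower in endothelial cells. Adamts1 passed the p in endothelial and mural cells but stayed under 2-fold there (0.96 ± 0.12 and 0.94 ± 0.14), and was low in macrophages (-6.74 ± 0.26). The matrix-bound Adamtsl1, which has no protease domain, was again a progenitor gene (-7.56 ± 0.19 in endothelial cells).

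In endothelial and mural cells the higher members included Mmp15, a membrane-anchored protease, at 5.09 ± 0.18 and 5.85 ± 0.26. Mmp15 rests on a low level, 29.6 CPM over the endothelial libraries. Mmp28 was called higher in endothelial cells, at 6.58 CPM. Since Dpp4+ and F3+ progenitors held no UMI of it, the size of its difference from progenitors depends on the offset of the fit and is not given. In macrophages the 2 higher members were Mmp9, gelatinase B, at 9.48 ± 0.12, and Mmp28, the latter on 0.402 CPM, or 10 UMIs.

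A group of 9 Mmp genes lies within chr9:7272514-7699585, and its members were found in different cells. Mmp3 and Mmp27 were progenitor genes. Mmp12, the macrophage elastase, had 154 UMIs in macrophages and Mmp13, a collagenase, had 175, against 4 and 2 UMIs in progenitors. Mmp8 and Mmp10 had 2 UMIs each in progenitors, and the remaining Mmp1b, Mmp7 and Mmp20 had none in the 7 gates. In macrophages Mmp12 differed widely between mice, from 0.293 to 30.1 CPM under Ad-Lib feeding and from 0 to 13.9 under TAN.

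Each of the TIMPs had its own distribution, as the plot by library shows. Timp2, which also helps Mmp14 to activate pro-Mmp2, had the highest CPM of all members in progenitors, at 2554, 2224, 2474 and 2486 CPM under Ad-Lib feeding and 2137, 2252, 2049 and 2342 CPM under TAN. It was the highest member in macrophages too, with 894, 811, 858 and 996 CPM under Ad-Lib feeding and 771, 720, 916 and 817 CPM under TAN. Neither set of values was separated by feeding.

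Timp3, the inhibitor that stays bound to matrix and also blocks ADAMTS proteases, had the highest CPM of all members in endothelial and in mural cells. Against the progenitor subsets it differed by -0.22 ± 0.08 in endothelial and 0.69 ± 0.08 in mural cells, both under 2-fold. Its endothelial level was 1073, 1230, 1779 and 1620 CPM under Ad-Lib feeding and 1364, 1173, 1657 and 1649 CPM under TAN. In mural cells it was 2687, 2536, 2749 and 2125 CPM under Ad-Lib feeding and 2752, 2825, 4363 and 3690 CPM under TAN, so the groups did not overlap and TAN was higher, yet the change of 0.38 ± 0.15 on the log2 scale did not pass (edgeR adjusted p = 0.320). The 8 F3+ subset markers, 1 of them at 0, summed to 814 to 955 CPM in the mural cells of Ad-Lib and 1131 to 1431 CPM in those of TAN libraries (exact permutation p = 0.0286, n = 4 each). That p was not adjusted for the other marker lists and gates tested the same way. The 10 progenitor markers, at 612 to 865 and 660 to 841 CPM, overlapped. The part of either list in the result was not tested. In all progenitors Timp3 was 1348, 1447, 2192 and 1631 CPM under Ad-Lib feeding and 1706, 1684, 1541 and 1942 CPM under TAN.

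Timp4 was a vessel gene, 8.65 ± 0.11 above progenitors in endothelial and 7.83 ± 0.12 in mural cells. Its endothelial level was 768, 970, 1130 and 979 CPM under Ad-Lib feeding and 1045, 716, 1034 and 595 CPM under TAN, which overlapped. Its mural level was 457, 521, 566 and 576 CPM under Ad-Lib feeding and 607, 423, 932 and 468 CPM under TAN. Timp1, the TIMP known to be induced by injury, was low in every gate and highest in F3+ progenitors (37.2 CPM over all libraries). Timp1, Timp3 and Timp4 each overlap a synapsin gene on the other strand, and whether strand was used in counting is not stated.

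**Figure D2:**
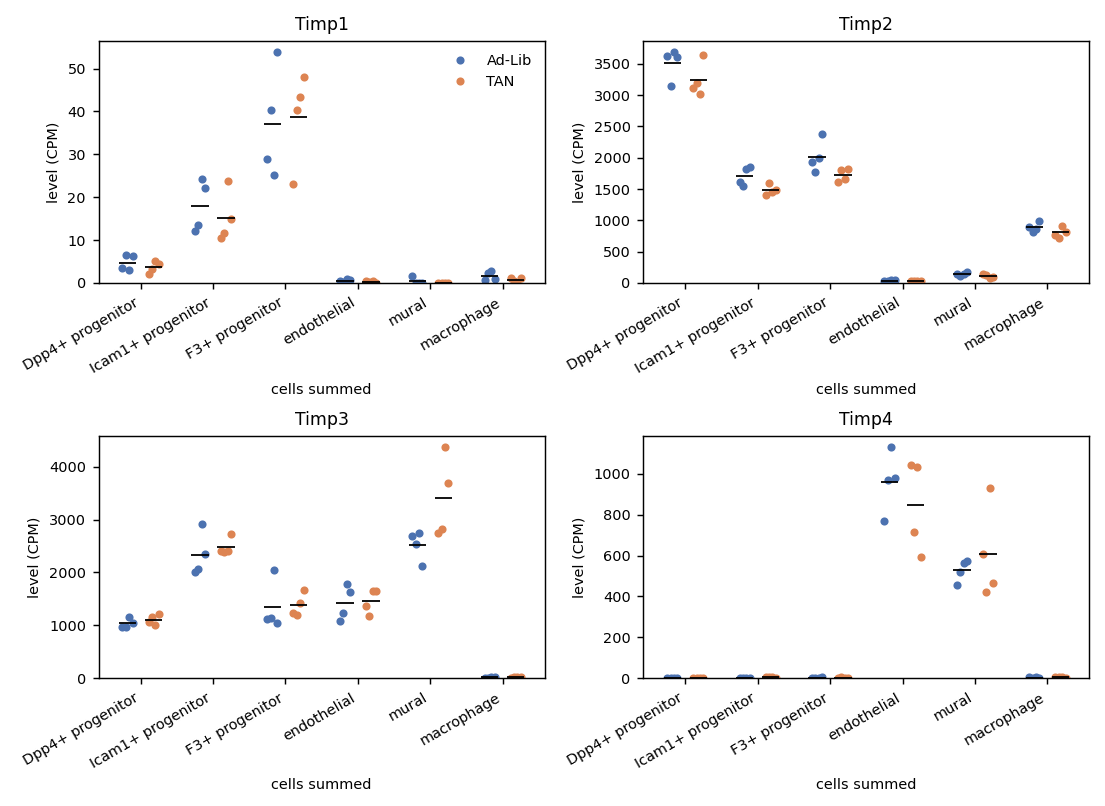
Level of each TIMP gene in CPM (vertical axes, from 0) by gate (horizontal axes) in the 4 Ad-Lib (blue) and 4 TAN (orange) libraries, 1 point per library, with bars at the group means. Timp2 is highest in Dpp4+ progenitors, Timp3 in mural cells, Timp4 in endothelial cells and Timp1 in F3+ progenitors, and the groups overlap in every panel except for Timp3 in mural cells.

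The 3 progenitor subsets differed among themselves. Icam1+ preadipocytes differed from Dpp4+ progenitors in 15 of 29 members, with 10 higher and 5 lower, where 17.0% of all genes differed and 7.96% were lower. F3+ progenitors were higher than Dpp4+ in 9 and lower in 2 (8.84% and 5.40%). Between F3+ and Icam1+ cells 2 members were higher and 2 lower (4.13% and 1.34%), and with Leiden clusters 8 were called in place of 4.

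Several Mmp genes were higher in Icam1+ than in Dpp4+ cells. Mmp3 had 94.4 to 201 CPM in Dpp4+ cells, 623 to 885 CPM in Icam1+ cells and 434 to 721 CPM in F3+ cells, with no overlap between Dpp4+ and either other subset. Its log2 difference was 2.35 ± 0.10 in Icam1+ and 1.89 ± 0.10 in F3+ cells against Dpp4+ cells. The other Mmp genes that were higher in Icam1+ cells were Mmp11 (2.60 ± 0.16), Mmp17 (1.94 ± 0.41) and Mmp28, whose difference is likewise not given, as it had no UMI in Dpp4+ cells. Mmp2 was also higher in Icam1+ cells, though under 2-fold (0.58 ± 0.08).

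The ADAMTS genes higher in Icam1+ than in Dpp4+ cells were Adamts7 (2.92 ± 0.35) and Adamts12 (2.63 ± 0.09), related proteases known to cut cartilage oligomeric matrix protein, and Adamts10 (1.36 ± 0.09) and the procollagen protease Adamts14 (1.24 ± 0.21). Adamts7 rests on 0.443 CPM in Dpp4+ cells. F3+ cells shared the higher Adamts7 (2.65 ± 0.44), Adamts10 (1.33 ± 0.10) and Adamts12 (2.11 ± 0.11), but Adamts14 was lower in F3+ than in Icam1+ cells (-1.24 ± 0.27). The other member lower in that pair was Mmp28, which had no UMI in F3+ and 19 UMIs in Icam1+ cells. F3+ cells were also higher than Dpp4+ cells in Adamts4 (1.51 ± 0.40), Mmp11 (1.89 ± 0.21), Mmp15 (2.27 ± 0.63) and Mmp17 (1.98 ± 0.49). Of these, Mmp15 rests on 72 UMIs in all progenitors and Adamts4 on 92 UMIs in Dpp4+ cells. Mmp15 and Mmp17 had too few UMIs in every subset for the comparison of TAN with Ad-Lib.

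Dpp4+ cells in turn held more of several genes without a protease domain. Icam1+ cells were lower in Adamtsl3 (-2.96 ± 0.18), Adamtsl4 (-2.55 ± 0.10) and Adamtsl5 (-1.17 ± 0.07), which code for matrix-associated proteins, in Timp2 (-1.18 ± 0.06) and in Mmp23 (-1.46 ± 0.07). F3+ cells were lower than Dpp4+ cells in Adamtsl4 (-1.60 ± 0.11) and Adamts5 (-1.23 ± 0.15). Adamtsl3 was 3.52 ± 0.19 higher in F3+ than in Icam1+ cells. Adamts16 was found in Dpp4+ cells, with 418 UMIs and 3.28 to 21.6 CPM per library, whereas Icam1+ and F3+ cells held 2 UMIs each, and the gene did not pass the count filter of the fit between gates.

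The inhibitors differed between subsets too. Timp1 was 1.84 ± 0.18 higher in Icam1+ and 3.00 ± 0.18 higher in F3+ cells than in Dpp4+ cells, and 1.16 ± 0.15 higher in F3+ than in Icam1+ cells. Timp3 was 1.07 ± 0.10 higher in Icam1+ than in Dpp4+ cells. In Dpp4+ cells Timp3 was 964, 969, 1164 and 1042 CPM under Ad-Lib feeding and 1055, 1147, 997 and 1204 CPM under TAN. In Icam1+ cells it was 2012, 2069, 2907 and 2345 CPM under Ad-Lib feeding and 2412, 2380, 2399 and 2720 CPM under TAN, above every Dpp4+ value. In F3+ cells Timp3 was 1128, 1129, 2054 and 1037 CPM under Ad-Lib feeding and 1228, 1188, 1423 and 1666 CPM under TAN.

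**Figure D3:**
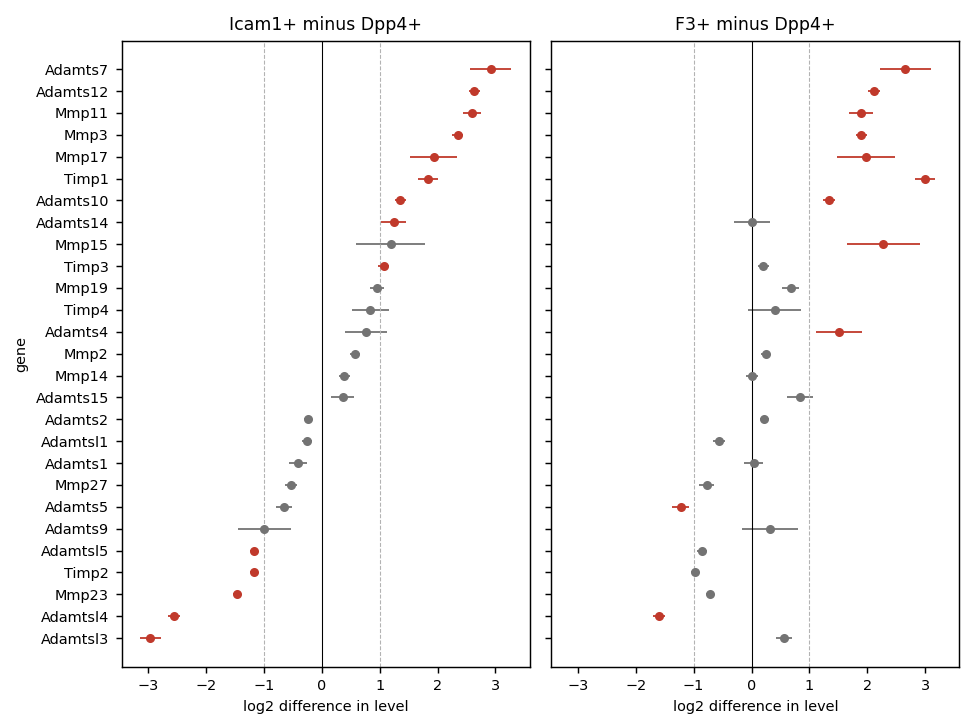
Log2 difference in level (horizontal axes) of 27 members (rows) in Icam1+ (left) and F3+ (right) against Dpp4+ progenitors, with SE bars over 8 libraries. Red points passed an adjusted p of 0.05 and 2-fold (dashed lines). Mmp9 and Mmp28, whose mean is under 1 CPM in all 3 subsets, are left out. Mmp3, Adamts12, Adamts10 and Timp1 lie to the right in both panels and Adamtsl4 to the left.

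For Mmp3, a progenitor protease higher in Icam1+ and F3+ than in Dpp4+ cells, the 250 bases before its start are given. They come from the RefSeq promoter table for GRCm38.p6 (chr9:7445572-7445821, plus strand). Capitals mark the letters TGANTCA, the AP-1 core, and TATAAA, the TATA box, searched on both strands and not overlapping each other.
Mmp3: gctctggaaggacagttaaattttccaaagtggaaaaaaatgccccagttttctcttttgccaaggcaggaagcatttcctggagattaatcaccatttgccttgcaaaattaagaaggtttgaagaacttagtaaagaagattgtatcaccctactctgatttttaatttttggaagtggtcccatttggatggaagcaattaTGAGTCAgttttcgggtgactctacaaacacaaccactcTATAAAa
TGANTCA occurred in 6.75% and TATAAA in 12.4% of 32851 promoters of this length. Of the 35 members with an entry, 7 held TGANTCA, and all 7 (Mmp1b, Mmp3, Mmp7, Mmp10, Mmp12, Mmp13 and Mmp20) belong to the chromosome 9 group. Adamts5 and Mmp2 had no entry.

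To ask how timed feeding altered these genes, TAN and Ad-Lib libraries were compared within each gate, called at an adjusted p under 0.05 and at least 1.5-fold. One member passed, Adamts5, and it did so in opposite directions in Dpp4+ progenitors and endothelial cells. It fell in Dpp4+ progenitors and rose in endothelial cells. In Dpp4+ cells 1 of 22 members tested was called, where 0.574% of all 10457 genes were, and in endothelial cells 1 of 14, where 2.08% of 10561 genes were.

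In Dpp4+ progenitors Adamts5 had 963, 906, 1007 and 1154 CPM in Ad-Lib 1, 3, 5 and 7 and 561, 591, 781 and 677 CPM in TAN 2, 4, 6 and 8. Every TAN library lay below every Ad-Lib library. The group means were 1007 ± 106 and 652 ± 98.6 CPM (SD, n = 4 each), and the log2 change was -0.64 ± 0.09 (SE, edgeR quasi-likelihood test, adjusted p = 0.00665). Over 15 alternatives the adjusted p lay between 5.08e-08 and 0.0369. Without Ad-Lib 7 the change was -0.58 and without TAN 2 it was also -0.58, which is short of 1.5-fold.

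In Icam1+ cells Adamts5 had 561, 618, 680 and 714 CPM under Ad-Lib feeding and 374, 489, 447 and 611 CPM under TAN, where only TAN 8 reached into the Ad-Lib range. The change of -0.46 ± 0.11 passed the p (edgeR adjusted p = 0.0349) but not 1.5-fold, as 2.74% of 10398 genes did by p alone. That p lay between 0.00103 and 0.135 over 15 alternatives and missed 0.05 when any one of Ad-Lib 3, 5 and 7 or TAN 2, 4 and 6 was left out. In F3+ cells the values were 512.5, 429, 461 and 380 CPM against 248, 343, 303 and 357 CPM, with no overlap, and a change of -0.56 ± 0.13 that did not pass (edgeR adjusted p = 0.0870, 0.00108 to 0.310 over alternatives).

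In all progenitors together Adamts5 had 752, 705, 754 and 806 CPM under Ad-Lib feeding and 438, 518, 551 and 598 CPM under TAN, again without overlap. The change of -0.55 ± 0.08 had an edgeR adjusted p of 0.0122, under 1.5-fold, and 0.908% of all 12219 genes passed that p. The share of cells with an Adamts5 UMI was also taken, after thinning each cell to 2000 UMIs. It falls both with fewer transcripts per cell and with fewer cells that hold any, which cannot be told apart, and comes from the same libraries as the levels. In Dpp4+ cells that share was 79.5% ± 3.54 under Ad-Lib feeding and 64.9% ± 4.91 under TAN (SD, n = 4 each, exact permutation p = 0.0286, unthinned 93.1% and 84.5%). The thinning left out 175 Ad-Lib and 180 TAN cells. In Icam1+ cells the share was 64.6% ± 2.92 against 55.0% ± 6.79, which overlapped (exact permutation p = 0.0857, n = 4 each), and in F3+ cells 49.3% ± 4.96 against 36.4% ± 4.05 (exact permutation p = 0.0286, n = 4 each). In B cells, which should lack the gene, the share was 0, 0.305, 2.67 and 0% in Ad-Lib 1, 3, 5 and 7 and 0 to 0.354% under TAN, with a median of 3468 UMIs per cell against 9157 in Dpp4+ cells. The highest of these, Ad-Lib 5, rests on 74 B cells, and Ad-Lib 1 and 7 held 17 and 24.

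The median depth of Dpp4+ cells was 9204 to 10326 UMIs under Ad-Lib feeding and 7741 to 9567 UMIs under TAN, whose part in the result was not tested beyond the thinning. The 6 T cell markers summed to 0.265 to 0.874 CPM in the Dpp4+ cells of Ad-Lib and 2.21 to 12.1 CPM in those of TAN libraries, and the 10 progenitor markers to 21184 to 26091 and 19965 to 23245 CPM.

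In endothelial cells the direction was the opposite. Adamts5 had 64.6, 86.5, 101 and 70.4 CPM under Ad-Lib feeding and 140.0, 116, 111 and 131 CPM under TAN, so every TAN value lay above every Ad-Lib value. The means were 80.6 ± 16.4 and 124 ± 13.3 CPM (SD, n = 4 each), and the log2 difference of TAN from Ad-Lib was 0.65 ± 0.13 (SE; edgeR adjusted p = 0.00985, 1.6e-05 to 0.0497 over 16 alternatives). Without Ad-Lib 1, Ad-Lib 7 or TAN 2 the change was 0.57, 0.58 or 0.57 and short of 1.5-fold, as it was when Leiden clusters replaced the marker gates (0.57). After thinning to 2000 UMIs, 13.8% ± 2.28 of endothelial cells under Ad-Lib feeding and 18.6% ± 1.83 under TAN had an Adamts5 UMI (exact permutation p = 0.0286, n = 4 each, unthinned 21.3% and 27.3%), with 610 and 574 cells left out.

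The median depth of endothelial cells was 3694 to 3826 UMIs under Ad-Lib feeding and 3656 to 4059 UMIs under TAN. The 10 endothelial markers summed to 10326 to 11428 CPM under Ad-Lib feeding and 9645 to 10083 CPM under TAN in these cells, without overlap (exact permutation p = 0.0286, n = 4 each). That p, too, was not adjusted for the other marker lists and gates. The 10 progenitor markers summed to 109 to 213 CPM in the endothelial cells of Ad-Lib and 84.3 to 128 CPM in those of TAN libraries, and none of them was at 0. That is 0.327 to 0.621% of their level in progenitors of the same library. Endothelial Adamts5 was at 8.59 to 32.0% of its progenitor level. Whether progenitor RNA had a part in it was not tested. The 8 Dpp4+ subset markers summed to 240 to 284 CPM under Ad-Lib feeding and 370 to 396 CPM in TAN endothelial cells, most of it Anxa3 at 198 to 247 and 333 to 358 CPM, while Dpp4 itself stayed at 0.389 to 2.05 CPM. Their part in the result was not tested. With the 13 cells that carried lymphatic markers left out, an alternative added after the data were seen, Adamts5 was still called.

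The 2 directions were compared in 1 fit with the library as a term, added after the opposite signs had been seen. The change in endothelial cells minus that in all progenitors was 1.24 ± 0.17 on the log2 scale (edgeR adjusted p = 0.00106, 7.02e-25 to 0.00523 over 14 alternatives), with 1 of 28 members called where 1.98% of 11702 genes were. Adamts1, its neighbour on chromosome 16, had a difference of -0.81 ± 0.22 that did not pass (edgeR adjusted p = 0.0708). It passed without TAN 8 (-1.05, adjusted p = 0.0246) and with no filter on low counts (-0.78, 9.22e-10). Between the progenitor subsets no member's change was called different (edgeR, 0 of 23 in each of 3 pairs, with 2, 1 and 0 members under an unadjusted p of 0.05 against 11.7%, 8.38% and 6.44% of all genes, and no other tool run), where 1.15%, 0.215% and 0.00937% of 10673 genes were called. With no filter on low counts Adamtsl3 was called for Icam1+ minus Dpp4+ (-1.18, edgeR adjusted p = 0.0371). The Adamts5 change in Icam1+ minus that in Dpp4+ cells was 0.16 ± 0.13.

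**Figure D4:**
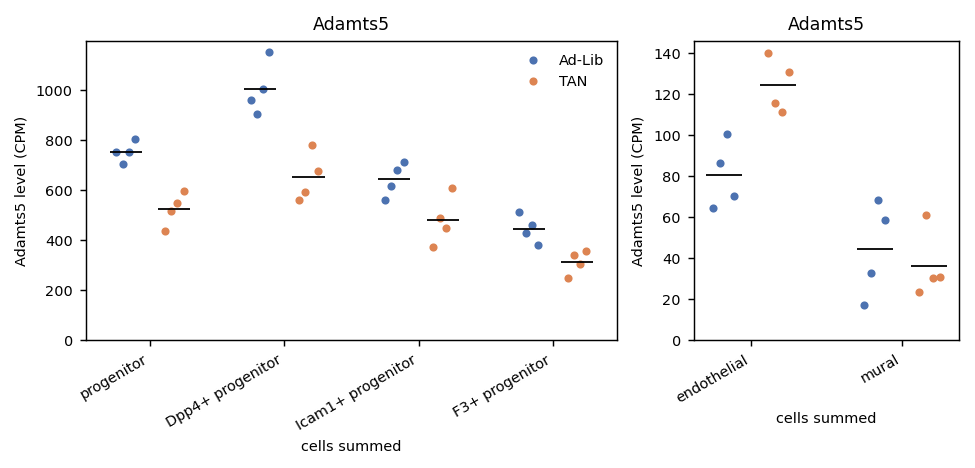
Adamts5 level in CPM (vertical axes, from 0, different in the 2 panels) in the 4 Ad-Lib (blue) and 4 TAN (orange) libraries, 1 point per library with bars at group means, in progenitors and their subsets (left) and in endothelial and mural cells (right). TAN points lie lower in the progenitor gates and higher in endothelial cells, and overlap the Ad-Lib points in mural and Icam1+ cells.

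In mural cells Adamts5 was 17.1, 32.8, 68.6 and 58.7 CPM under Ad-Lib feeding and 23.4, 61.2, 30.2 and 30.6 CPM under TAN, on 127 UMIs in all, and the change of -0.24 ± 0.36 did not pass and turned to 0.01 with Leiden clusters and 0.02 with a mitochondrial limit of 20%. In macrophages it had 0.724 to 4.39 CPM, near the 1.71 CPM of B cells, and was not tested.

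The neighbour Adamts1, also a proteoglycanase, was not called. Its endothelial level was 421, 440, 518 and 569 CPM under Ad-Lib feeding and 272, 391, 193 and 427 CPM under TAN, with TAN 8 inside the Ad-Lib range and a change of -0.58 ± 0.19 (edgeR adjusted p = 0.107). In mural cells it was 618, 321, 532 and 447 CPM against 499, 353, 277 and 355 CPM (-0.39 ± 0.19). In Dpp4+ progenitors its change was 0.36 ± 0.13 (adjusted p = 0.262).

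No other member was called in any gate with the settings reported. With no filter on low counts Adamts16 was called in Dpp4+ cells (-0.84, edgeR adjusted p = 0.0296) and Mmp12 in macrophages (-0.97, 0.0442). No member was called in Icam1+ (0 of 23, 1.68% of all genes), F3+ (0 of 21, 0.303%), all progenitors (0 of 28, 0.565%), mural cells (0 of 15, 0.729%) or macrophages (0 of 9, 0.773%), by edgeR as by DESeq2. At an unadjusted p under 0.05 edgeR had 5, 4, 3, 5 and 0 members in these gates, where 14.1%, 9.49%, 13.6%, 10.6% and 14.6% of all genes were under it. The median log2 change of the members tested lay between -0.10 (Icam1+) and 0.07 (mural), and that of all genes between -0.0045 and 0.0089.

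Mmp2 was not called in any gate. In Icam1+ cells Mmp2 was 885, 779, 1017 and 989 CPM under Ad-Lib feeding and 886, 965, 827 and 929 CPM under TAN (-0.06 ± 0.10). In F3+ cells it was 678, 592, 907 and 948 CPM against 720, 673, 628 and 764 CPM (-0.20 ± 0.14), and in all progenitors 694, 619, 872 and 872 CPM against 728, 774, 643 and 786 CPM (-0.08 ± 0.10). These groups overlapped throughout.

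Timp2 had a lower TAN mean in each subset without passing. In Dpp4+ cells it was 3633, 3142, 3686 and 3603 CPM under Ad-Lib feeding and 3110, 3202, 3019 and 3638 CPM under TAN (-0.12 ± 0.07). In Icam1+ cells it was 1613, 1556, 1823 and 1854 CPM against 1408, 1598, 1447 and 1477 CPM (-0.24 ± 0.09, edgeR adjusted p = 0.196), with TAN 4 inside the Ad-Lib range. In F3+ cells it was 1928, 1776, 1996 and 2373 CPM against 1611, 1803, 1664 and 1823 CPM (-0.27 ± 0.12).

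In mural cells the smallest unadjusted p was that of Adamtsl1, at 27.3, 16.4, 80.0 and 81.4 CPM under Ad-Lib feeding and 21.1, 11.1, 40.3 and 15.3 CPM under TAN. The groups overlap and the change of -1.35 ± 0.44, on 120 UMIs, did not pass (edgeR adjusted p = 0.172). It passed without Ad-Lib 3 (-1.61, adjusted p = 0.0202) and with no filter on low counts (-1.34). Adamtsl1 overlaps Sh3gl2 on the same strand.

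In macrophages Mmp9, known there as a secreted gelatinase, was 177, 228, 260 and 241 CPM under Ad-Lib feeding and 398, 189.5, 299 and 245 CPM under TAN. The change of 0.34 ± 0.17 had the smallest p of that gate and did not pass (edgeR adjusted p = 0.353), with TAN 2 highest and TAN 4 among the low values. Adamtsl5, the third most abundant member there, was 30.5, 28.6, 28.5 and 36.3 CPM under Ad-Lib feeding and 24.2, 22.4, 29.7 and 31.5 CPM under TAN (-0.20 ± 0.12).

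**Figure D5:**
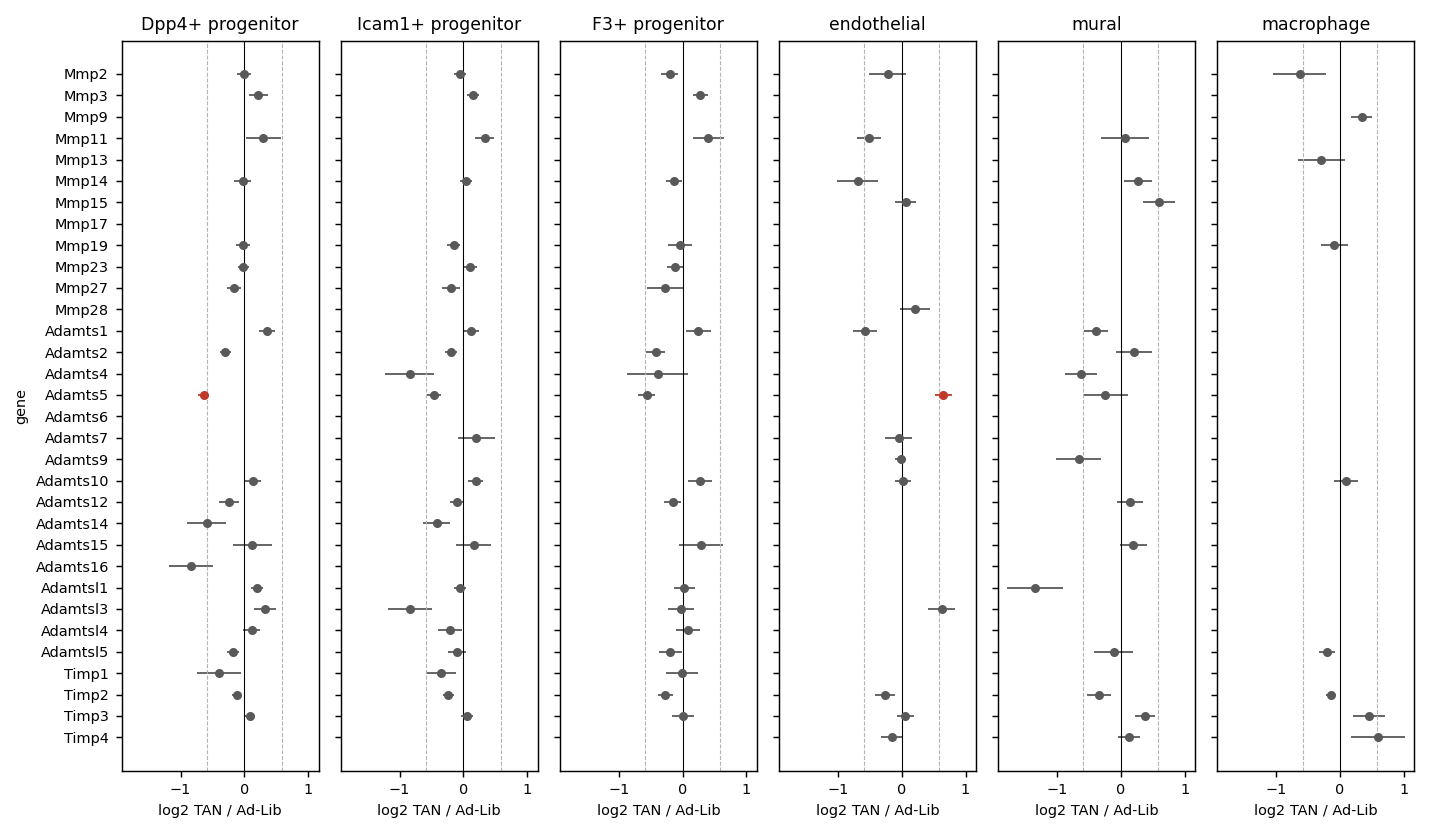
Log2 change from Ad-Lib to TAN (horizontal axes) of each member tested (rows) in 6 gates (panels), with SE bars, 4 libraries per group. Dashed lines mark 1.5-fold and red points passed the test. The 2 red points are Adamts5, at -0.64 in Dpp4+ progenitors and 0.65 in endothelial cells.

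Summed over a family, Adamts transcripts of Dpp4+ cells were 1468 ± 132 CPM under Ad-Lib feeding and 1118 ± 144 CPM under TAN (SD, n = 4 each), of which Adamts5 made up 64.2% on average. The sums of Mmp (1161 ± 148 and 1172 ± 169 CPM) and Timp transcripts (4557 ± 312 and 4348 ± 360 CPM) of the same cells lay within their spread. In endothelial cells, where Adamts1 made up 62.1% of it, the Adamts sum was 715 ± 79.1 and 586 ± 111 CPM.

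Other genes of matrix turnover were read from 4 lists of 53 genes. Of the 7 genes of the plasminogen system, which activates some pro-enzymes, none was called in any gate (2 to 5 tested per gate). The same held for the 17 other matrix and shedding proteases (8 to 15 tested) and the 12 other inhibitors, activators and clearance genes (5 to 10 tested), by edgeR, where 0.303% (F3+) to 2.08% (endothelial) of all genes were called. Of the 17 genes listed as proteoglycan and matrix substrates, Lox and Pcolce2 among them, 1 of 7 tested fell in Dpp4+ progenitors, where 0.421% of all genes fell. In Icam1+ progenitors 2 of 9 fell (all genes 1.21%) and in endothelial cells 1 of 9 (1.16%), and none was called higher. None of the substrates was called in all progenitors (0 of 9), F3+ (0 of 9), mural cells (0 of 3) or macrophages (0 of 4). Passing the p but not 1.5-fold by edgeR were Serpine2 in Icam1+ (-0.54 ± 0.10, adjusted p = 0.00835), Vcan in Dpp4+ (-0.45 ± 0.09, 0.02655) and Fbn1 in all progenitors (-0.51 ± 0.10, 0.0426). So did Bgn, which was higher in endothelial cells (0.42 ± 0.11, 0.0419). By p alone 285 of 10398 genes passed in Icam1+, 81 of 10457 in Dpp4+, 111 of 12219 in all progenitors and 429 of 10561 in endothelial cells.

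Fbn1, which codes for the microfibril protein fibrillin-1, fell in Dpp4+ cells from 636, 691, 643 and 679 CPM to 363, 407, 412 and 452 CPM, a log2 change of -0.71 ± 0.08 (edgeR adjusted p = 0.000858) without overlap. In Icam1+ cells Fn1, fibronectin, fell by 0.73 ± 0.18 (adjusted p = 0.0348), from 175, 203, 118 and 267 CPM to 108, 104, 118 and 145 CPM, and Fmod, the collagen-binding proteoglycan fibromodulin, by 1.47 ± 0.22 (0.00111), from 16.6, 17.8, 15.9 and 23.1 CPM to 4.71, 5.77, 6.30 and 10.3 CPM. The Fn1 groups overlapped. Dpp4+ cells held 3513 to 4177 CPM of Fn1, with a change of -0.13 ± 0.06 that was not called. Whether their RNA had a part in the Icam1+ result was not tested. In endothelial cells Tnc, tenascin C, fell from 47.4, 28.2, 35.3 and 31.3 CPM to 9.72, 8.93, 22.5 and 15.1 CPM (-1.39 ± 0.23, 0.00399). The median log2 change of the substrates tested was -0.42 in all progenitors, -0.13 in Dpp4+, -0.39 in Icam1+, -0.53 in F3+, -0.22 in endothelial cells, 0.03 in mural cells and -0.04 in macrophages.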

How the data were processed

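Stromal vascular cells of inguinal fat were released with collagenase and captured in droplets with a 3′ kit (10x Genomics v3), 1 library per mouse. The authors deposited raw UMI counts per gene and barcode, aligned to mm10 (GRCm38). The submitters' notes name Cell Ranger 3.0.2 and Seurat, the file headers Cell Ranger 6.0.1, and the annotation used is not given in the sources used here. The tables hold called cells with at least 500 UMIs and no normalization. Groups came from the labels.

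Cells with 700 to 30000 UMIs, 200 to 8000 genes and at most 10% mitochondrial UMIs were kept. A cell entered a gate when at least 50% of a list's markers had a UMI and no other list reached above 0.5 of that share. A progenitor subset needed a lead of 0.5 SD. Doublets were kept, and an alternative removed the highest simulated-doublet scores, 0.8% per 1000 cells. UMIs were summed per library and gate and tested with edgeR 4.0.16 (TMM, filterByExpr, quasi-likelihood test, Benjamini-Hochberg over all genes), DESeq2 1.42.0 being an alternative. Single values were tested by exact two-sided permutation over 70 assignments. The test was tried on simulated counts. Intervals of counting error were not needed, as values are given with their spread over mice.

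Members and lists were chosen with earlier results of these data known. Values in every library are given for each member called, the 3 members with the highest CPM per gate and, where none was called, that with the smallest p. Values given for Mmp3, Adamts16, Mmp12 and the substrates go beyond that rule, and Anxa3 was named after its values were seen. All 50 identifiers matched GENCODE M21.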

Additional observations from a re-analysis of the deposited data

Results flagged for a closer look

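In 4 groups of values a closer look was prompted. Among 56 groups of 4 libraries tested for a library far from the others (Dixon's test), 3 stood out, and chance flags about 1 in 20 such groups. Timp2 in Dpp4+ progenitors was 3142 CPM in Ad-Lib 3, below the other Ad-Lib libraries. Timp3 in Icam1+ progenitors was 2720 CPM in TAN 8, above the other TAN libraries. Timp3 in F3+ progenitors was 2054 CPM in Ad-Lib 5, above the other Ad-Lib libraries.

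The Adamts5 change from Ad-Lib to TAN differed between cell types. Endothelial cells minus all progenitors gave 1.24 on the log2 scale, by a test of the difference itself (edgeR adjusted p = 0.00106).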

How the results depend on the processing

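Of 253 counts of members called under an alternative, 233 lay within 1.5 times the value reported, and of 420 values of single genes 6 lost and 5 gained a call. In 17 others the direction turned, all of them uncalled before and after. Timp3 in F3+ cells turned to -0.0006 with doublets removed, -0.025 with no filter on low counts and -0.22 with stricter gates. In mural cells Adamts5 turned to 0.014 with Leiden clusters and 0.018 with a mitochondrial limit of 20%, and Timp4 to -0.13 with Leiden clusters and -0.030 with stricter gates. Leaving out 1 library at a time gave Timp3 -0.026 to 0.17 in progenitors, -0.11 to 0.24 in F3+ cells and -0.043 to 0.16 in endothelial cells, and Timp4 -0.10 to 0.28 in mural cells. With no minimum fold, 1 member was called in progenitors and 1 in Icam1+ cells. With no filter on low counts there were 2 in Dpp4+ cells, 1 in F3+ cells, 1 in mural cells, 1 in macrophages, 1 (Adamtsl3) for the difference between Icam1+ and Dpp4+ changes and 4 (Adamts5, Adamts1, Mmp11 and Timp4) for that between endothelial cells and progenitors. With Leiden clusters there were 1 in F3+ cells, 0 in endothelial cells, 2 (Adamts5 and Mmp11) for the difference between endothelial cells and progenitors and 8 for levels in F3+ against Icam1+ cells. Leaving out 1 library at a time gave 0 to 1 members in progenitors, Dpp4+, endothelial and mural cells and 1 to 2 for the difference between endothelial cells and progenitors. The causes were not tested. Libraries whose omission moved a call were Ad-Lib 7 and TAN 2 (Dpp4+), Ad-Lib 1, Ad-Lib 7 and TAN 2 (endothelial), TAN 8 (progenitors, and the difference between gates) and Ad-Lib 3 (mural). No paired analysis was possible because the replicate numbers in the labels are not shared between the groups. Depth limits the mural gate. The 18 members that were never tested had too few UMIs for the count filter, 4 of them none in these gates, and the reason was not tested. With stricter gates Adamts5 and Adamtsl1 had too few UMIs in mural cells to be tested.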

Other observations

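Some members were also measured in cell types that were not compared here. Values are CPM over all libraries. In 75 cells with monocyte and neutrophil markers, Mmp9 was at 1290 CPM and Mmp8, the neutrophil collagenase, at 224 CPM on 46 UMIs, with 87.6 CPM of Mmp25. Adamts14 was at 57.3 CPM in 202 NK and ILC cells, on 68 UMIs.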
